A study of Rattus norvegicus with 12 samples.

Results

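Myosin motors that work outside the muscle sarcomere were measured in long bone of ovariectomized (OVX) rats fed blueberry (BB) diets, of OVX rats fed a control diet and of sham-operated rats. The 8 genes were the unconventional myosins Myo6, Myo10, Myo1e, Myo5a and Myo9b and the heavy chains of non-muscle myosin II, Myh9, Myh10 and Myh14. Every probe set that the platform annotation assigned to one of these symbols alone was taken, which gave 12 of the 31042 probe sets tested and 8 of 14224 genes. Myo6, Myo10, Myo9b and Myh9 had 2 probe sets each, and the other 4 genes had 1. The genes were chosen by family with the values of OVX against sham bone already known, so that difference is given with its standard error (SE) as a description and without a test.

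Total bone RNA came from female Sprague-Dawley rats, all killed on postnatal day (PND) 81. STBB OVX rats (short-term BB) were fed a diet with 10% freeze-dried BB from PND 20 to PND 34, and LTBB OVX rats (long-term BB) were fed it from PND 20 onwards. OVX and sham rats were fed the casein control diet. The ovaries were removed, or a sham operation was done, on PND 60, 3 weeks before the end. Each of the 4 groups had 3 arrays, RNA of 2 to 3 rats was mixed in equal parts for an array, and no sham-operated group was fed BB. The pups came from 6 dams, and no source used here gives the litters of a pool. The sample labels name the femur and the methods name the right tibia. The authors' values are log2 values with a median of 0 for each probe set over the 12 arrays, so 0 lies close to the 9 arrays of OVX rats, and a value shows how an array differed from the others but not how strongly a gene was expressed. For this reason dim probe sets could not be told from bright ones, and the levels of different genes could not be compared. A gene was taken as the mean of its probe sets. In RNA of whole bone, fewer cells of a type and less RNA per cell cannot be told apart.

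Myosins bind actin filaments and use ATP to pull on them or to walk along them. Class II myosins assemble into bipolar filaments that contract the cell cortex, the stress fibres and the cleavage ring, whereas unconventional myosins carry vesicles, tie membranes to actin and build cell protrusions. In bone, actin-based motors are known from the podosomes with which osteoclasts seal off the surface they resorb and from the stress fibres of osteoblasts.

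Promoter windows of the genes are shown first because 4 of them were higher and 2 lower than in sham bone, with no change called for the other 2. All 8 genes matched a window in a RefSeq table of the assembly GRCr8 that holds 250 bases before and 50 bases after each start. Shown are 3 genes that were higher in OVX rats, Myo6 (chr8:89967147-89967446, plus strand), Myo10 (chr2:77831282-77831581, plus strand) and Myo1e (chr8:79768578-79768877, plus strand), and both genes that were lower, Myh10 (chr10:53893014-53893313, plus strand) and Myh14 (chr1:104295295-104295594, minus strand). Capitals mark matches on either strand to GGGCGG, known as the GC box, to the promoter element CCAAT, or to the CArG box bound by serum response factor.
Myo6: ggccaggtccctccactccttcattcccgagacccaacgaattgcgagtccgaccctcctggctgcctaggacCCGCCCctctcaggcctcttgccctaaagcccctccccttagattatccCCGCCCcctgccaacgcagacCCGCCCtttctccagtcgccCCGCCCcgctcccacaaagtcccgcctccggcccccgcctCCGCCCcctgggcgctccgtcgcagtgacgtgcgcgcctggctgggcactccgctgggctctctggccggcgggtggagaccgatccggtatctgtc
Myo10: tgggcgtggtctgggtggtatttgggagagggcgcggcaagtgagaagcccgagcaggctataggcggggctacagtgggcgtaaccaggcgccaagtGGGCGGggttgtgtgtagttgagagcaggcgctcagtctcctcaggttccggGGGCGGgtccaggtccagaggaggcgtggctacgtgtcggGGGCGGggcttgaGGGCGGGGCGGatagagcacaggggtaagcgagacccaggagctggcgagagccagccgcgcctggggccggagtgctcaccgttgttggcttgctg
Myo1e: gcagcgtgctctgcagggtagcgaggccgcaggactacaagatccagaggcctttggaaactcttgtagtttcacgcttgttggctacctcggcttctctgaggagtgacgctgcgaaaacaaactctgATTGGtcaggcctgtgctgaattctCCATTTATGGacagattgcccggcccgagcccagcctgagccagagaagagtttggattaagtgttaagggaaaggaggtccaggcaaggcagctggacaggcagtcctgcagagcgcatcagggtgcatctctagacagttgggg
Myh10: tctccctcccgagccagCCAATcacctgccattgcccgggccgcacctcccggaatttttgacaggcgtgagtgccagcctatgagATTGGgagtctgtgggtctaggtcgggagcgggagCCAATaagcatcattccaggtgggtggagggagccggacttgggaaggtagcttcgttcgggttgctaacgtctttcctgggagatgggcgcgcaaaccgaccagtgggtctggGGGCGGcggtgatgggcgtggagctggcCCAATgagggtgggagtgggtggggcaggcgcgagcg
Myh14: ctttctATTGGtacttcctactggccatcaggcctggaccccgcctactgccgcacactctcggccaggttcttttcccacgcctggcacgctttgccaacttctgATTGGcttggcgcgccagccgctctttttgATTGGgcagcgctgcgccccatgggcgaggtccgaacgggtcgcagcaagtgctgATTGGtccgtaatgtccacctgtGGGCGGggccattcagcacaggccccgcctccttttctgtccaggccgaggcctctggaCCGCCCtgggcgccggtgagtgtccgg
GGGCGG was present in the first window of 7 of the 8 genes, against 33.1% of 33469 rat windows. The first windows were also richer in G and C, with 55.3% to 81.3% GC and 10 to 47 CpG against medians of 51.7% and 7 over all windows, and these counts were not adjusted for it. Myo6 and Myo10 had 5 matches each and Myo5a had 8, and 2.34% of all windows held 5 or more. Myo9b and Myh9, for which no change was called, had 4 each, Myh14 had 2 and Myh10 had 1. Myh9 had 2 windows, of which the first was counted; the second had 48.7% GC and no GGGCGG. In Myo10 and Myo5a 1 pair of these matches shared a base, and in the first window of Myh9 1 pair shared 2 bases. Myo1e was the gene without a match, and its window held the CArG box that 1.64% of windows held, together with 1 CCAAT. The element CCAAT was found in the windows of 4 of the 8 genes, against 37.5% of all windows. Myh10 and Myh14 had 4 copies each, which 0.675% of windows reached, and Myh9 had 2. The limits of 5 GGGCGG and 4 CCAAT equal counts found in these genes, so the shares are a description only. TATAAA was found only for Myh9 (14.2% of all windows). The E box CANNTG, which was searched but is not marked, was in 6 of the 8 windows (72.1%). Neither the AP-1 site TGACTCA (4.63% of all windows) nor the cyclic AMP response element TGACGTCA (1.83%) was in any of the 8 first windows, while the second window of Myh9 held 1 copy of TGACTCA. These matches describe the letters of the windows, and no binding was measured.

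Myo6 encodes the only known myosin that walks towards the pointed ends of actin filaments, and it serves endocytosis and vesicle transport. Its values were 0.17, 0.062 and -0.053 in the STBB OVX pools, 0.039, -0.023 and 0.19 in the LTBB OVX pools, -0.12, 0.068 and 0.014 in the OVX pools and -1.62, -1.60 and -1.68 in the sham pools. All 3 sham pools lay below all 9 pools of OVX rats, with a gap of 1.48. The difference between OVX and sham was 1.62 (SE 0.081). Myo10 encodes the motor that moves to the tips of filopodia and binds integrins. Its values were 0.20, 0.051 and -0.032 in STBB OVX pools, 0.041, 0.12 and 0.067 in LTBB OVX pools, -0.028, -0.016 and -0.10 in OVX pools and -1.63, -1.78 and -1.61 in sham bone. The sham pools were again the lowest, with a gap of 1.51 to the nearest pool of OVX rats. OVX minus sham was 1.63 (SE 0.074).

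Myo1e is a long-tailed class I myosin that links membranes to actin at sites of endocytosis and in adhesions. Its values were 0.026, 0.27 and -0.13 in the STBB OVX pools, 0.012, 0.16 and -0.071 in the LTBB OVX pools, 0.19, -0.012 and 0.15 in the OVX pools and -1.82, -1.33 and -2.33 in the sham pools. The sham pools were all lowest but spread more widely than for the other genes, with a standard deviation (SD) of 0.499 (n = 3). OVX minus sham was 1.94 (SE 0.19). Myo5a carries vesicles and organelles towards the barbed ends of actin filaments. It had 0.12, -0.058 and 0.018 in STBB OVX pools, 0.0074, 0.0090 and 0.041 in LTBB OVX pools, -0.0074, -0.029 and 0.0435 in OVX pools and -1.18, -1.25 and -1.67 in sham bone. The 9 pools of OVX rats lay within a range of 0.18, and the nearest sham pool was 1.12 below them. OVX minus sham was 1.37 (SE 0.11).

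Myo9b, an unconventional myosin whose tail carries a GTPase-activating domain, did not separate the groups. Its values were 0.0094, 0.16 and 0.023 in STBB OVX pools, 0.055, -0.0014 and -0.036 in LTBB OVX pools, 0.037, -0.089 and 0.083 in OVX pools and -0.0495, 0.033 and -0.018 in sham bone. The sham pools lay inside the range of the OVX rats, and OVX minus sham was 0.022 (SE 0.069).

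Among the non-muscle myosin II heavy chains, Myh9, which forms non-muscle myosin IIA, also showed no separation. It had 0.020, 0.0015 and 0.064 in STBB OVX pools, -0.0088, 0.022 and -0.041 in LTBB OVX pools, 0.0049, -0.055 and -0.092 in OVX pools and -0.0021, 0.029 and -0.026 in sham bone. Its OVX minus sham difference was -0.048 (SE 0.057), and the sign turned to 0.074 with the probe set whose annotation lists the symbol once. Myh10, the heavy chain of non-muscle myosin IIB, ran opposite to Myo6, Myo10, Myo1e and Myo5a. Its values were -0.11, -0.12 and 0.061 in STBB OVX pools, -0.37, -0.10 and 0.17 in LTBB OVX pools, -0.029, 0.029 and -0.073 in OVX pools and 0.88, 0.96 and 0.69 in sham bone. The lowest sham pool was 0.52 above the highest pool of OVX rats, which was LTBB OVX pool 3. OVX minus sham was -0.87 (SE 0.12). Myh14, the heavy chain of non-muscle myosin IIC, had -0.022, 0.069 and -0.014 in STBB OVX pools, -0.14, -0.14 and -0.16 in LTBB OVX pools, 0.024, -0.20 and 0.014 in OVX pools and 0.45, 0.84 and 1.22 in sham bone. Here too every sham pool was above the OVX rats, but the sham pools differed among themselves by more than the gap of 0.38. OVX minus sham was -0.89 (SE 0.14).

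**Figure D1:**
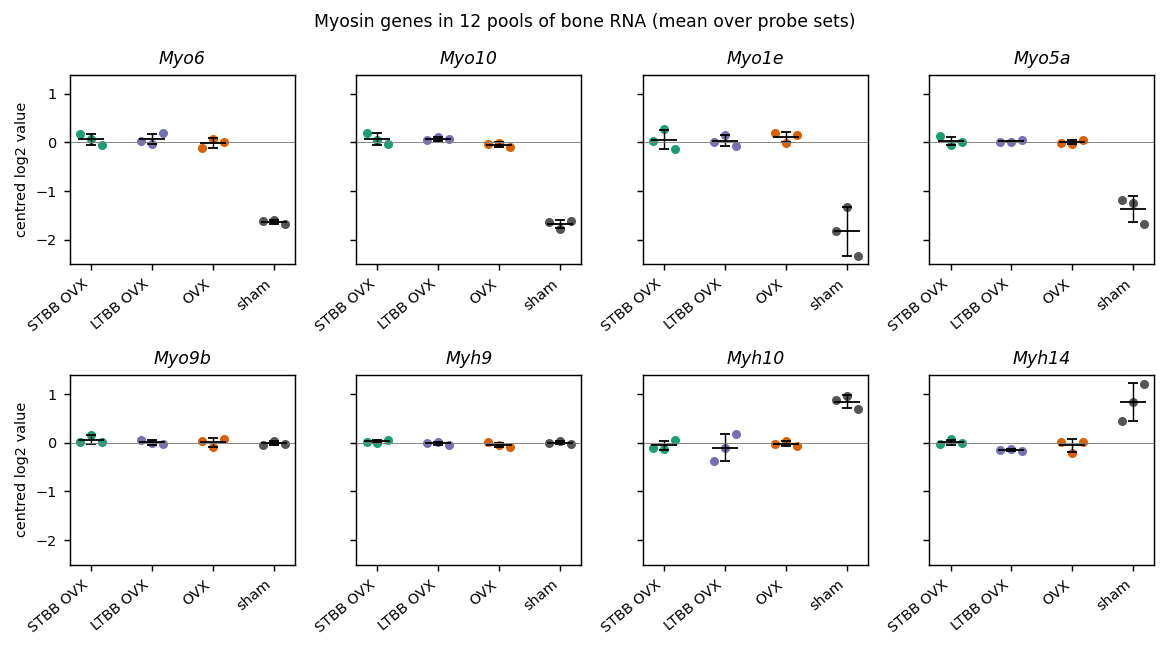
Centred log2 value (no unit) of each of the 8 myosin genes in each pool (points) of STBB OVX, LTBB OVX, OVX and sham rats, with the group mean (bar) and SD (whiskers), n = 3 pools. The sham pools lie below the others for Myo6, Myo10, Myo1e and Myo5a, above them for Myh10 and Myh14, and among them for Myo9b and Myh9.

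The sham pools, which the choice of the genes had used, thus lay outside all 9 pools of OVX rats for 6 of the 8 genes, below them in 4 and above them in 2. Over all 14224 genes 53.2% were separated in this way, 27.1% with sham below and 26.0% with sham above. The arrays of sham bone also stood apart as a whole, with an SD over all probe sets of 0.781 to 0.824, against 0.136 to 0.194 on the 9 arrays of OVX rats, as a median of 0 taken over 9 alike and 3 unlike arrays brings about.

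The question whether BB-fed OVX rats differed from sham-operated rats was asked with limma, a linear model fitted across all genes with shared information on the spread, at an adjusted p of 0.05 after Benjamini-Hochberg. In STBB OVX bone 4 of the 5 unconventional myosins were higher than in sham bone, by 1.69 for Myo6 (SE 0.081, adjusted p = 1.71e-09), 1.75 for Myo10 (SE 0.074, adjusted p = 6.09e-10), 1.88 for Myo1e (SE 0.19, adjusted p = 1.88e-06) and 1.40 for Myo5a (SE 0.11, adjusted p = 1.3e-07). On the linear scale these are 3.23-, 3.36-, 3.69- and 2.63-fold. Myh10 was lower by a log2 change of -0.90 (SE 0.12, adjusted p = 2.1e-05) and Myh14 by one of -0.82 (SE 0.14, adjusted p = 0.000239). LTBB OVX bone gave 1.70, 1.75, 1.86 and 1.39 for the same 4 higher genes and -0.94 and -0.98 for Myh10 and Myh14, with adjusted p between 6.14e-10 and 5.23e-05. Myo9b did not pass, at 0.076 in STBB OVX against sham (95% interval -0.073 to 0.23, adjusted p = 0.372) and 0.017 in LTBB OVX against sham (-0.13 to 0.17, adjusted p = 0.847). For Myh9 the changes were 0.028 (-0.096 to 0.15, adjusted p = 0.702) and -0.0097 (-0.13 to 0.11, adjusted p = 0.899).

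Both comparisons therefore called 4 of the 8 genes higher and 2 lower, where limma called 58.3% of all genes in each of them (29.3% higher and 29.0% lower for STBB OVX, 29.2% higher and 29.1% lower for LTBB OVX) and 58.8% (30.2% higher, 28.6% lower) between OVX and sham. They use the same sham pools as the difference by which the genes were chosen, so they are no independent evidence for it. By size, Myo6, Myo10, Myo1e and Myo5a exceeded 90.2% to 94.6% of all genes in STBB OVX against sham, and Myh10 and Myh14 exceeded 81.0% and 78.8%. The arrays were also quantile normalized again, which gives every array the same spread of centred values. By construction this shrinks the values of the sham arrays and widens those of the arrays of OVX rats. The 4 higher genes kept their calls with changes of 0.58 to 0.82 (STBB OVX) and 0.55 to 0.78 (LTBB OVX). Myh10 then lost its call in both comparisons (STBB OVX -0.44, adjusted p = 0.196, LTBB OVX -0.60, adjusted p = 0.0842), and Myh14 lost it in STBB OVX (-0.32, adjusted p = 0.0835).

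**Figure D2:**
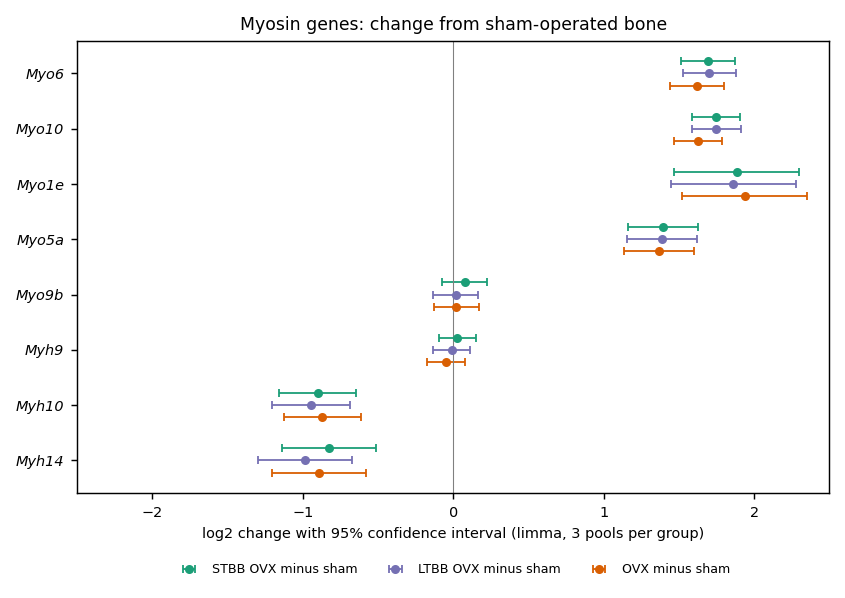
Log2 change of each myosin gene in STBB OVX, LTBB OVX and OVX against sham bone, with the 95% confidence interval of the limma fit (n = 3 pools per group). The 3 changes of a gene lie close together, between 1.37 and 1.94 for the 4 higher genes and between -0.82 and -0.98 for Myh10 and Myh14, and they share the sham pools.

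Markers of cell types differed between the same arrays, though without levels it could not be checked which cell types the RNA held. Genes of skeletal muscle were lower than in sham in 10 of 12 for STBB OVX, 12 of 12 for LTBB OVX and 12 of 12 for OVX, and their mean centred value was -0.044 to 0.675 in STBB OVX, -3.18 to 0.383 in LTBB OVX, -3.09 to -1.31 in OVX and 3.49 to 4.41 in sham pools. Genes of the red cell lineage (7 of 7 measured lower in OVX) had -0.303 to 0.137 in the 9 pools of OVX rats and 2.42 to 2.87 in sham, and neutrophil genes (5 of 5 lower) had -0.399 to 0.122 in OVX rats and 2.47 to 3.01 in sham. Osteoblast genes (9 of 9 higher in OVX) had -0.028 to 0.122 in the pools of OVX rats and -2.57 to -2.38 in sham, osteoclast genes (5 of 6 higher) had -0.035 to 0.154 in OVX rats and -2.60 to -2.33 in sham, and cartilage genes (8 of 9 higher) had -0.057 to 0.65 in OVX rats and -4.47 to -4.36 in sham. Macrophage genes were higher in OVX bone in 5 of 8 and endothelial genes in 6 of 7, with 1 lower in each. Smooth muscle genes were lower in OVX bone in 5 of 7, with a median of -0.38. Des was far the lowest of them (-5.06), and Cnn1 (0.23) and Smtn (0.14) were not called. B cell genes were lower in 2 of 4, and nerve genes were higher in 3 of 5 and lower in 1. All these counts stand against 30.2% of all genes higher and 28.6% lower between OVX and sham. The 4 B cell genes measured are too few to be set apart from that background. The part of these cell types in the differences of the myosin genes was not tested.

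Whether the BB diets changed the myosin genes in OVX rats was asked by comparing the 3 groups of OVX rats with one another. No comparison called any of the 8 genes (adjusted p = 1 for every one), and no gene mean reached an unadjusted p of 0.05. Of their single probe sets, 1387402_at of Myh9 (limma, unadjusted p = 0.0236) and 1385409_at of Myo10 (0.049) were under 0.05 in STBB OVX against OVX. None was in the other comparisons, and neither of these passed after adjustment. Over all 14224 genes limma likewise called 0 (0.0%) in each comparison, while 922 (2.97%), 884 (2.85%) and 1018 (3.28%) of the 31042 probe sets were under 0.05 before adjustment in STBB OVX against OVX, LTBB OVX against OVX and STBB OVX against LTBB OVX.

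For STBB OVX against OVX the 8 changes ran between -0.052 for Myo1e (95% interval -0.47 to 0.36) and 0.12 for Myo10 (-0.038 to 0.28). For LTBB OVX against OVX they ran between -0.093 for Myh14 (-0.40 to 0.22) and 0.12 for Myo10 (-0.036 to 0.28). For STBB OVX against LTBB OVX they ran between -0.0080 for Myo6 (-0.18 to 0.17) and 0.16 for Myh14 (-0.15 to 0.47). For each gene the interval rests on a spread taken over all 4 groups, sham pools included. For Myo1e the SD was 0.20, 0.11 and 0.11 in STBB OVX, LTBB OVX and OVX pools, against 0.50 in sham pools. For Myh14 it was 0.05, 0.01 and 0.13, against 0.38 in sham pools. The intervals were narrowest for Myh9 and Myo9b and widest for Myo1e. Its bounds reached -0.49 (LTBB OVX against OVX) and 0.44 (STBB OVX against LTBB OVX) on the log2 scale. For Myo6, Myo10 and Myo5a every interval lay between -0.22 and 0.28, which is small beside their differences of 1.37 to 1.75 from sham. Over all genes the median size of a change was 0.0533, 0.0563 and 0.0553 in the 3 comparisons.

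**Figure D3:**
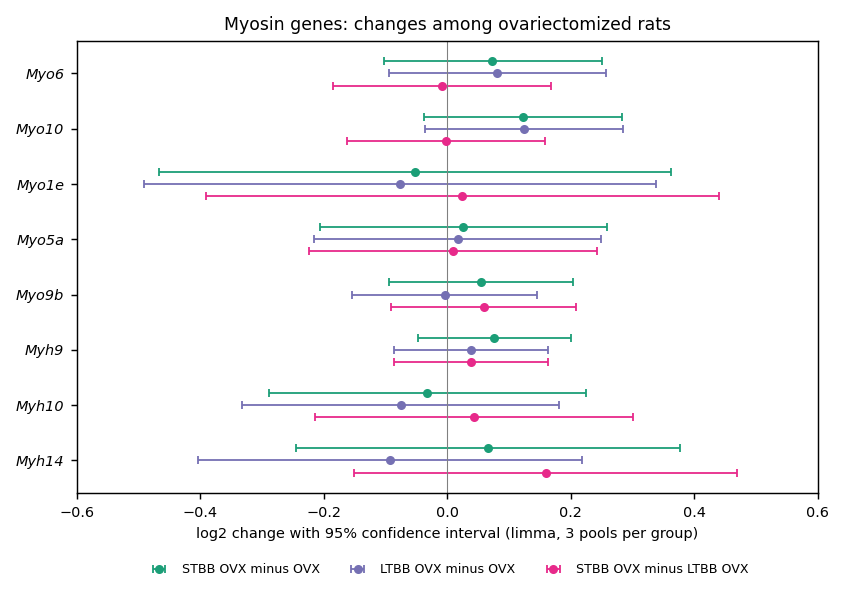
Log2 change of each myosin gene in STBB OVX against OVX, LTBB OVX against OVX and STBB OVX against LTBB OVX, with the 95% confidence interval of the limma fit (n = 3 pools per group). Every interval includes 0, and the largest changes are 0.12 for Myo10 against OVX and 0.16 for Myh14 between the BB diets. The intervals use the spread of all 4 groups, sham pools included.

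The pools of 2 groups did not overlap for 1 of the 8 genes in LTBB OVX against OVX, which was Myo10 (8.69% of all genes), for 1 in STBB OVX against LTBB OVX, which was Myh14 (10.9%), and for 0 in STBB OVX against OVX (9.38%). With 3 pools on each side, the smallest p of an exact permutation test is 0.10. The Myo10 difference came mainly through 1 of its 2 probe sets, 1385409_at, with 0.31, 0.011 and 0.0315 in STBB OVX pools, 0.0076, 0.19 and 0.15 in LTBB OVX pools and -0.12, -0.0076 and -0.22 in OVX. All 6 pools of BB-fed rats were above the 3 OVX pools there, by 0.24 for STBB OVX (95% interval 0.0012 to 0.47, adjusted p = 1) and 0.23 for LTBB OVX (-0.0026 to 0.47, adjusted p = 1). The other probe set, 1393639_at, gave 0.0080 and 0.015 for these comparisons.

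The paired probe sets offered a check within a gene. Those of Myo6 gave 1.68 (SE 0.12) and 1.56 (SE 0.079) between OVX and sham, and those of Myo10 gave 1.48 (SE 0.11) and 1.77 (SE 0.075). For both genes the 2 probe sets placed every sham pool below every pool of OVX rats. The Myo9b probe sets differed in sign instead. Probe set 1375169_at had 0.029, 0.22 and 0.027 in STBB OVX pools, -0.052, -0.013 and -0.043 in LTBB OVX pools, -0.0057, -0.13 and -0.0028 in OVX pools and 0.0028, 0.11 and 0.22 in sham, and OVX minus sham was -0.16 (SE 0.084). Probe set 1387866_at had -0.010, 0.10 and 0.020 in STBB OVX pools, 0.16, 0.010 and -0.029 in LTBB OVX pools, 0.079, -0.043 and 0.17 in OVX pools and -0.10, -0.039 and -0.26 in sham, and OVX minus sham was 0.20 (SE 0.088). The mean of 0.022 for the gene between OVX and sham thus averages 2 opposite values of about the same size. Neither probe set passed between STBB OVX and sham (adjusted p = 0.88 and 0.13 in limma) or between LTBB OVX and sham (adjusted p = 0.173 and 0.109 in limma).

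The Myh9 probe sets also ran apart. Probe set 1371725_at had -0.0498, 0.023 and 0.0032 in STBB OVX pools, -0.019, -0.031 and -0.059 in LTBB OVX pools, 0.071, 0.022 and 0.0073 in OVX pools and -0.0032, 0.053 and -0.17 in sham. Probe set 1387402_at had 0.090, -0.020 and 0.12 in STBB OVX pools, 0.0010, 0.075 and -0.023 in LTBB OVX pools, -0.062, -0.13 and -0.19 in OVX pools and -0.0010, 0.0047 and 0.12 in sham. The OVX pools were thus the lowest in the second probe set and the LTBB OVX pools were below the OVX pools in the first. STBB OVX against OVX was 0.19 in the second (95% interval 0.030 to 0.36, adjusted p = 1) and -0.042 in the first (-0.20 to 0.12, adjusted p = 1). Of the 12 probe sets, pools did not overlap in 3 for STBB OVX against OVX (8.92% of all probe sets), 3 for LTBB OVX against OVX (9.24%) and 2 for STBB OVX against LTBB OVX (10.3%), and none of these comparisons called a probe set after adjustment.

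**Figure D4:**
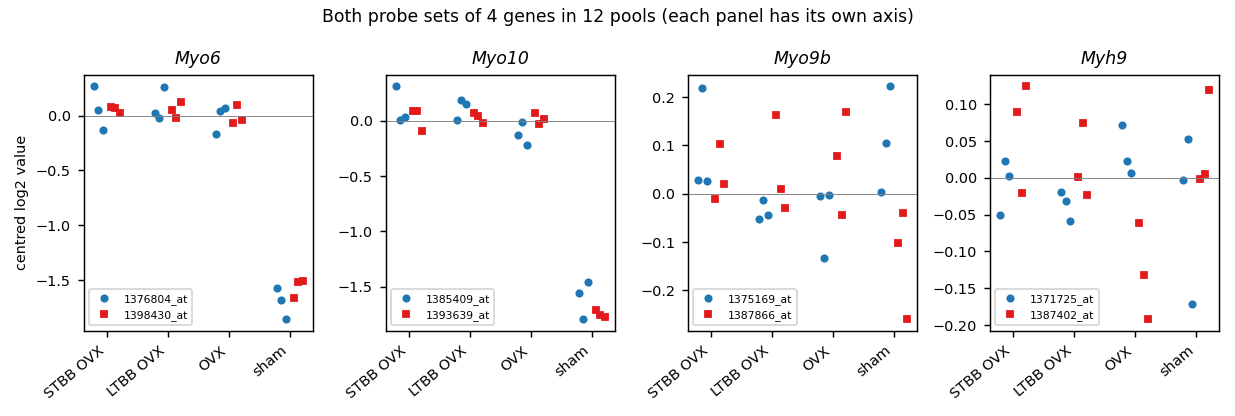
Centred log2 values (no unit) of both probe sets of Myo6, Myo10, Myo9b and Myh9 in each pool of STBB OVX, LTBB OVX, OVX and sham rats; circles and squares are the 2 probe sets. Both probe sets of Myo6 and Myo10 put the sham pools far below the rest, whereas those of Myo9b and Myh9 cross, on axes that span less than 0.6.

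Other genes of the actomyosin system were described from 4 lists. Between OVX and sham their counts stand against 30.2% of all genes higher and 28.6% lower. Of 20 other non-sarcomeric heavy chains 13 were measured, and limma called 4 higher and 6 lower between OVX and sham, with a median of -0.065 (all genes 0.0046). The class I motor Myo1d was higher by 1.73 (SE 0.084, adjusted p = 1.85e-09) and Myo1c by 0.69 (SE 0.080, adjusted p = 6.67e-06). Myo18b, which is needed to build sarcomeres, had -2.71 (SE 0.26, adjusted p = 1.01e-06), Myo5c, a vesicle motor of secretory epithelia, -2.31 (SE 0.094, adjusted p = 4.26e-10), and Myo1f, a class I motor of white blood cells, -1.82 (SE 0.12, adjusted p = 3.61e-08). Of the class I motors measured here Myo1e, Myo1d and Myo1c were thus higher and Myo1f and Myo1g (-1.12, SE 0.12, adjusted p = 4.01e-06), another white blood cell motor, were lower. Class V motors differed as well, with Myo5a at 1.37, Myo5b at 0.018 (SE 0.085, adjusted p = 0.872) and Myo5c at -2.31. Myo1g and Myo5b were named after their values were seen.

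The sarcomeric heavy chains of muscle were lower in 6 of 8 measured and higher in 0, with a median of -1.98. Myh2, the fast IIa chain, had -8.07 (SE 0.62, adjusted p = 1.2e-07), Myh4, the fast IIb chain, -6.38 (SE 1.22, adjusted p = 0.000517), Myh7, the slow chain, -6.22 (SE 0.65, adjusted p = 2.37e-06), and Myh3, the embryonic chain, -3.57 (SE 0.21, adjusted p = 9.32e-09). Myh10 and Myh14 shared the sign of Myh2, Myh4, Myh7 and Myh3 at a smaller size. The other sarcomeric chains called lower, Myh8 (-0.40) and Myh6 (-0.22), changed less than Myh10 and Myh14.

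**Figure D5:**
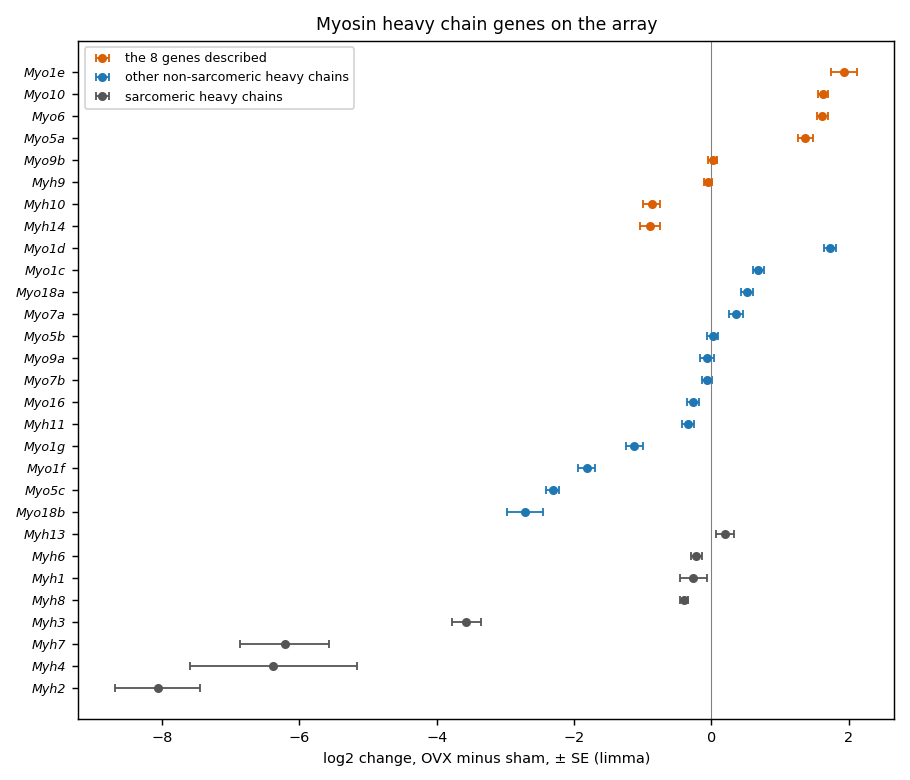
Log2 change between OVX and sham bone (OVX minus sham, points) with its SE (whiskers) for the 8 myosin genes described here, 13 other non-sarcomeric heavy chains and 8 sarcomeric heavy chains. Values run from 1.94 for Myo1e down to -8.07 for Myh2, and the non-sarcomeric genes lie on both sides of 0.

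Among light chains and regulators of non-muscle myosin II, 12 of 25 measured genes were higher and 11 lower in OVX than in sham bone, with a median of -0.032. Ect2 and Racgap1, which act in the division of cells, had -1.96 (SE 0.079, adjusted p = 4.2e-10) and -1.82 (SE 0.095, adjusted p = 3.78e-09). Limch1, an activator of non-muscle myosin II, had 1.88 (SE 0.11, adjusted p = 7.87e-09) and the GTPase Rhoc had 1.35 (SE 0.066, adjusted p = 2.04e-09). Of 31 measured partners of the unconventional motors, 13 were higher and 7 lower, with a median of 0.099. Dab2, the endocytic adaptor that binds Myo6, was higher by 2.04 (SE 0.10, adjusted p = 2.17e-09), Cd2ap, an actin adaptor at endocytic sites, by 1.31 (SE 0.091, adjusted p = 4.98e-08), and Neo1, a netrin receptor of the DCC family whose members bind Myo10, by 1.26 (SE 0.058, adjusted p = 1.14e-09). Rab27a, the GTPase that links vesicles to Myo5a, was lower at -1.69 (SE 0.099, adjusted p = 1.02e-08), and so was the light chain Dynll2 at -0.65 (SE 0.072, adjusted p = 4.63e-06). Probe sets of a gene differed in sign for 7 partners, Rab3a, Tom1, Tom1l2, Ncald, Lmtk2, Sh3kbp1 and Enah, most widely for Enah, where they ran between -0.27 and 1.37. None of the measured genes of the 4 lists passed in a comparison among the OVX rats. For sarcomeric chains this did not always mean a small change. STBB OVX minus OVX was 4.08 for Myh4 (SE 1.22), 2.89 for Myh2 (SE 0.62) and 1.20 for Myh7 (SE 0.65). LTBB OVX minus OVX was 1.26, 0.49 and 1.03 for these genes. The remaining sarcomeric chains lay between -0.24 (Myh13) and 0.20 (Myh3) in STBB OVX against OVX.

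The genes whose pattern over the 12 arrays was closest to that of a myosin gene were found by the root mean square difference of values centred on each gene's mean. For Myo6 they were Angpt2, a ligand of the vessel receptor Tie2 (0.0759), the tetraspanin Tspan3 (0.0820) and the glycosyltransferase B4gat1 (0.0845). For Myo10 they were the collagen receptor Ddr2 (0.0604), C11h3orf70 (0.0780) and the surface protein Cd276 (0.0798). Those of Myo5a were C19h1orf198, Fads3 and Cnpy2 (0.0547 to 0.0663), and those of Myo1e were Pimreg, Podxl2 and Dlx3 (0.145 to 0.160). Myh10 was followed most closely by Melk, Tinf2 and Hpf1 (0.102 to 0.112) and Myh14 by Fem1a, Rnf217 and Rxrg (0.0711 to 0.0794). For the flat genes these were Smarcc2, Cyp2c13 and Sharpin for Myo9b and LOC102550950, Cnn2 and Syt3 for Myh9 (0.0366 to 0.0437). Such lists were not exclusive, as 7 genes for Myh14 and up to 120 for Myh10 lay within 1.5 times the distance of the nearest one. Among the 6 myosin genes with a change called against sham, Myo6 and Myo10 were the closest pair (0.0908). The distance between Myo9b and Myh9 was smaller (0.0707), but between flat genes a small distance shows no shared pattern. For the other myosin genes a distance over the 12 arrays rests largely on the difference from sham bone, known when they were chosen. OVX minus sham was 1.62 for Myo6 and 1.63 for Myo10. Pairs among Myo6, Myo10, Myo1e and Myo5a had correlations of 0.946 to 0.993 over the 12 arrays. Over the arrays of OVX rats alone they had -0.379 to 0.557 (Myo6 and Myo10). Myh10 and Myh14 had 0.824 and -0.09.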

How the data were processed

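RNA of 12 pools (3 per group) was measured on Affymetrix Rat 230 2.0 arrays. The authors deposited log2 values made by robust multiarray analysis, with measurements under 0.01 set to 0.01 and normalization per chip and per gene in GeneSpring. The submitters' notes on processing name GCOS and RMA, with versions not given in the sources used here. Each probe set has a median of 0, so no filter on dim probe sets was possible.

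Of 31099 probe sets 57 controls were left out. GEO's platform annotation gave 1 symbol for 20837 probe sets (11 of these repeat it, among them 1387402_at of Myh9), several for 425 and none for 9780; 20769 were updated by gene ID through RefSeq genes of GRCr8. A gene was the mean of its probe sets.

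limma 3.58.1 in R 4.3.3 fitted 4 group means over all 12 arrays, tested on simulated data, with Benjamini-Hochberg adjustment at 0.05 over all probe sets or genes. The number of arrays limits precision, and p-values rest on the spread among pools of all 4 groups, sham included. The myosin genes, lists and tests were chosen with earlier results of these data known. Named were all 8 genes with every probe set; from each list up to 4 genes with the largest called change between OVX and sham and up to 2 against its main direction; partners whose probe sets differed in sign; and the 3 nearest genes by pattern. Myo1g and Myo5b were added after their values were seen. Pool numbers, normalization, centring, array weights, moderation, the groups fitted, thresholds, the unit of a gene and each array were varied. Python 3.11.15 with matplotlib 3.10.9 drew the figures.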

Additional observations from a re-analysis of the deposited data

Results flagged for a closer look

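All 3 LTBB OVX pools of Myh14 (-0.14, -0.14 and -0.16) lay below the mean of the OVX pools (-0.055) and all 3 STBB OVX pools (-0.022, 0.069 and -0.014) lay above it. The direct comparison of the diets gave a log2 change of 0.16 (95% interval -0.15 to 0.47), STBB OVX minus LTBB OVX, which did not pass in limma (adjusted p = 1, and 0.494 to 1 over the alternatives). The OVX pools themselves spread between -0.20 and 0.024, a range that holds all 3 LTBB OVX pools, and neither diet passed against OVX (adjusted p = 1 in limma). The interval between the diets rests on a spread taken over all 4 groups, sham pools included. The SD of Myh14 was 0.05, 0.01 and 0.13 in STBB OVX, LTBB OVX and OVX pools, against 0.38 in sham pools. Groups of 3 are too small for a test of single deviating pools.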

How the results depend on the processing

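The calls of the 8 genes against sham and their absence among OVX rats stayed the same when arrays were centred on their medians, weighted, fitted without moderation, fitted by the 2 groups compared or left out in turn. Pool numbers did not pair the samples: of 18 pairs of equal number 2 had a correlation of deviations above 0.1 (-0.279 to 0.158), 2 of 12 arrays correlated best with their own number, and the replicate block changed 0 of 48 results of the genes.

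After quantile normalization the probe sets called fell to 4249 (main 15280) in STBB OVX, 4563 (15295) in LTBB OVX and 4097 (15455) in OVX against sham. Myh10 and Myh14 were then not called at -0.44 and -0.32 in STBB OVX, nor Myh10 at -0.60 in LTBB OVX. OVX minus sham then shrank to 0.60 for Myo6, 0.52 for Myo10, 0.85 for Myo1e, 0.52 for Myo5a, -0.39 for Myh10 and -0.46 for Myh14, and was -0.11 for Myh9. Without that normalization, 8389, 8330 and 8373 probe sets also had a fold of at least 1.5 in these comparisons. With 1 probe set per gene it was 1.48 for Myo10, -0.16 for Myo9b and 0.074 for Myh9, a reversed sign, as with the probe set that lists Myh9 once, an alternative chosen after seeing the data. A fit of the 9 arrays of OVX rats, also chosen after seeing the data, changed 0 calls.

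Between STBB OVX and OVX 56 probe sets passed when only these groups were fitted, and 0 to 9 with 1 array left out (9 without LTBB OVX pool 3, 1 without STBB OVX pool 1). Between the BB diets 0 to 13 passed (13 without LTBB OVX pool 3, 1 without STBB OVX pool 1). The causes were not tested. With 3 pools per group and no levels, small changes and dim probe sets could not be resolved.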

Other observations

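Myo1e, Myo5a and Myo6, which were all higher in OVX than in sham bone, lie on rat chromosome 8. Between Myo1e and Myo6 56 other genes were measured, of which 19 (33.9%) were called higher and 17 (30.4%) lower between OVX and sham by limma, with a median log2 change of 0.010. Over the whole chromosome 33.5% of 806 genes were higher and 28.8% lower. The order of the genes was taken from RefSeq genes of GRCr8.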
